A study of Zea mays with 74 samples.

Results

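CG differentially methylated regions (DMRs) that lie just downstream of genes are described here. A CG DMR is a stretch of the genome in which the CG methylation of one population differed from that of another. The regions were chosen as the teosinte-maize CG DMRs whose chromosome, start and end match an entry of the study's gene-model assignment in bins 21 to 30. These 10 bins of 500 bp each cover the 5 kb downstream of a gene model, with bin 21 next to the gene. Of 1545 teosinte-maize CG DMRs, 242 fell in these bins, 273 lay in the bins upstream of a gene, 277 in gene bodies and 753 in no bin. The table of DMRs holds 6389 regions in all, over every comparison and cytosine context.

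The study set wild teosinte (Zea mays ssp. parviglumis) beside Mexican landraces and modern maize inbred lines. Bisulfite libraries came from 20 teosinte and 17 landrace plants, and genome libraries came from the same numbers of plants. All these plants were grown in a greenhouse and sampled as seedlings at the third leaf. The 14 modern maize lines entered as published data from other projects, and the labels used here give no tissue for them. The labels name no treatment. The landraces are open pollinated varieties and the modern lines are inbred. In the teosinte-maize and landrace-maize comparisons, population and source of the data therefore cannot be told apart. Both tables hold regions called between whole populations and no value for any single plant. Error between plants cannot be given, and the coverage behind each call was not analysed here. The intervals below are 95% intervals for counting error only, over regions that are not independent of each other.

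Plant cytosines are methylated next to G (CG), in the CHG context and in CHH, H standing for A, C or T. CG methylation is copied at each round of replication by MET1-type enzymes, CHG methylation is kept by chromomethylases that read a histone mark of silent chromatin, and CHH methylation is set again by RNA-directed methylation and chromomethylases. In maize, genes lie between blocks of transposons with high CG and CHG methylation, many gene bodies carry CG methylation alone, and the ends of genes are usually low in methylation, so the stretch beyond a gene often holds a border between low and high methylation.

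The label downstream was checked against the study's list of DMRs in exons, which gives the span of each listed gene. Of the 242 downstream CG DMRs, 25 stand on that list. The list holds 227 DMRs in all, beside 1545 teosinte-maize CG DMRs. For 16 of them the listed gene is the gene they were binned downstream of: 12 lie wholly inside the listed span and 4 lie partly inside it. For 11 the listed gene is another gene, and 2 of the 25 are listed for both. The list thus goes against the label for 16 regions, which were kept because the rule takes the bins as given. The gene-model bins were built on collapsed models, and an annotation of the same genome build was not used here.

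Most downstream CG DMRs were lower in maize than in teosinte. Of the 240 with a known direction, 162 (67.5%, interval 61.2 to 73.4) had less CG methylation in maize and 78 had more, and 2 had no direction in the list used. Over all CG DMRs the share lower in maize was 64.7%. The downstream share was 0.833 percentage points above that of upstream CG DMRs (66.7%, interval of the difference -7.31 to 8.89), so the flanks were not told apart. It was 27.6 points above that of gene-body CG DMRs (39.9%, interval of the difference 19.1 to 35.6). Against CG DMRs in no bin (72.2%) the difference was -4.74 points (-11.6 to 1.77). In direction, the downstream regions thus stood with the upstream and unbinned regions, and gene bodies differed from them.

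In direction, bin 21 differed from the bins farther from the gene, within the limits given below. Bin 21, the first 500 bp, held 14 regions lower and 15 higher in maize. Bins 22, 23 and 24 held 21, 29 and 18 lower and 9, 10 and 9 higher. Bins 25 to 30 held 11 to 17 lower and 3 to 8 higher each. In each of bins 22 to 30 the lower regions outnumbered the higher ones, and in bin 21 they did not. The share lower in maize was 48.3% in bin 21 and 70.1% in bins 22 to 30, a difference of -21.9 points (-39.7 to -3.40). This contrast was picked out of 10 bins. It rests on 29 regions, and without chromosome 1 its interval reached 0 (-18.8 points, -39.1 to 1.69). The nearer bins 21 to 25 differed from bins 26 to 30 by -3.74 points (-15.3 to 8.36).

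**Figure D1:**
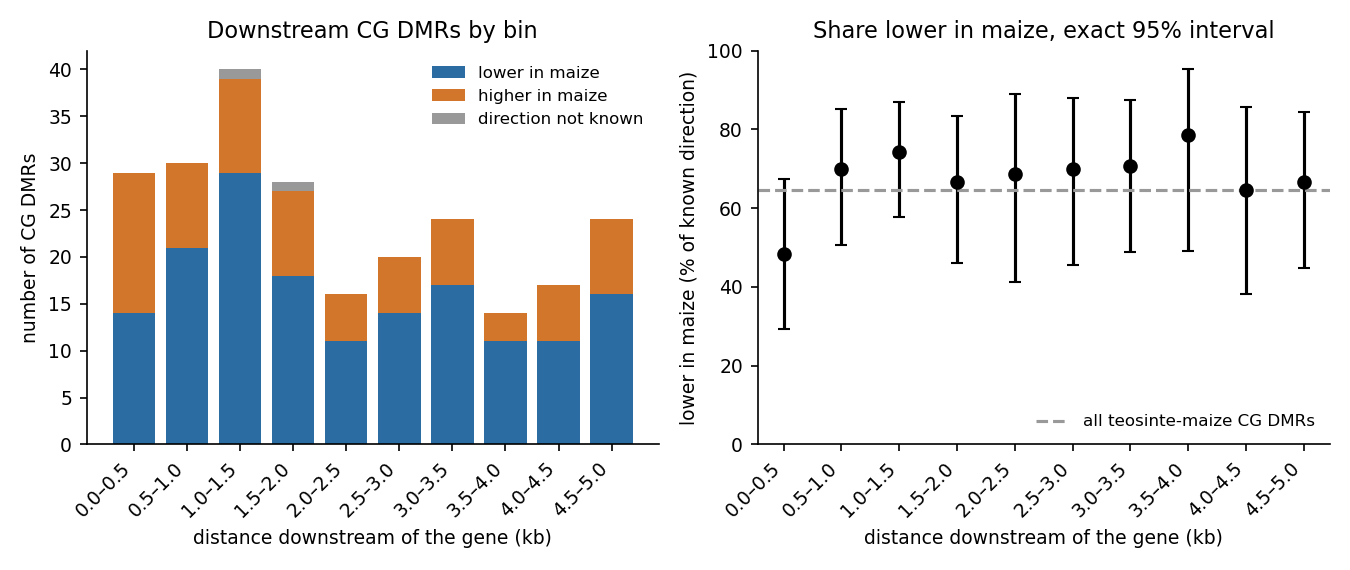
Left, the number of downstream CG DMRs in each 500 bp bin (distance from the gene in kb), stacked by direction in maize; right, the share lower in maize in percent with its exact 95% interval, and the share over all CG DMRs as a dashed line. Bin 23 holds the most regions (40), and the bin next to the gene is the one with fewer regions lower (14) than higher (15) in maize.

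Regions on the list of exons were more often higher in maize than the rest. Of those 25, 11 were lower and 14 were higher in maize, and 8 of the 25 lay in bin 21. The share lower was 44% on the list and 70.2% off it, a difference of -26.2 points (-44.5 to -6.24). Over all DMRs on the list this share was not taken, and in gene-body CG DMRs it was 39.9%. Among the 16 listed for the gene they were binned downstream of, 10 were lower and 6 higher in maize. Among the 11 listed for another gene, 3 were lower and 8 higher. The 8 listed regions of bin 21 were 6 lower and 2 higher in maize, and the other 21 were 8 lower and 13 higher. Without the listed regions the difference between bin 21 (38.1% lower) and bins 22 to 30 (73.7%) was -35.6 points (-53.9 to -13.6).

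Many downstream CG DMRs coincided with a CHG DMR of the same comparison. Of the 242 regions, 107 (44.2%, interval 37.9 to 50.7) overlapped a teosinte-maize CHG DMR by at least 1 bp, and over all CG DMRs the share was 49.8%. Both contexts were read from the same libraries. The overlap was 22.6 points more frequent than in gene bodies (21.7%, interval of the difference 14.5 to 30.3). Against CG DMRs in no bin (61.6%) the difference was -17.4 points (-24.4 to -10.2). Against upstream regions (50.5%) the difference was -6.33 points (-14.8 to 2.29).

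Where the contexts coincided, they mostly did so over the whole CG region. The median overlap was 387 bp, or 97.0% of the length of the CG DMR. In 102 of the 107 regions at least 50% of the length was covered, and 32 lay wholly inside 1 CHG DMR. The CHG DMR was the longer one in 77 of the 107, and the median length of these CHG DMRs was 597 bp. The other 135 regions were mostly far from any CHG DMR: the median distance to the nearest was 306.8 kb, and 13 of the 135 had one within 5 kb. A downstream CG DMR thus mostly had either a CHG DMR over the same bases or none within 5 kb. With 2372 teosinte-maize CHG DMRs over 2105.4 Mb, long distances to the nearest one are common at any site. The distance is therefore not read as a trait of these regions. Whether other CG DMRs do the same was not examined, and the direction of the CHG DMRs was not taken.

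The overlap with CHG DMRs went with direction. Of the 162 regions lower in maize, 90 (55.6%, interval 47.6 to 63.4) overlapped a CHG DMR, and of the 78 higher in maize 15 (19.2%, interval 11.2 to 29.7) did. The difference was 36.3 points (23.6 to 46.7). The same difference was 19.8 points (7.21 to 31.4) upstream, 42.5 points (32.4 to 52.0) in gene bodies and 9.79 points (2.01 to 17.6) in no bin, so it was not confined to the downstream regions. With regions within 10 kb of each other counted once it was 36.8 points, and without the regions on the list of exons 37.3 points. Among the 94 regions with a difference of population means of at least 0.6 it was 16.8 points (-6.46 to 41.4), and there 16 regions were higher in maize.

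**Figure D2:**
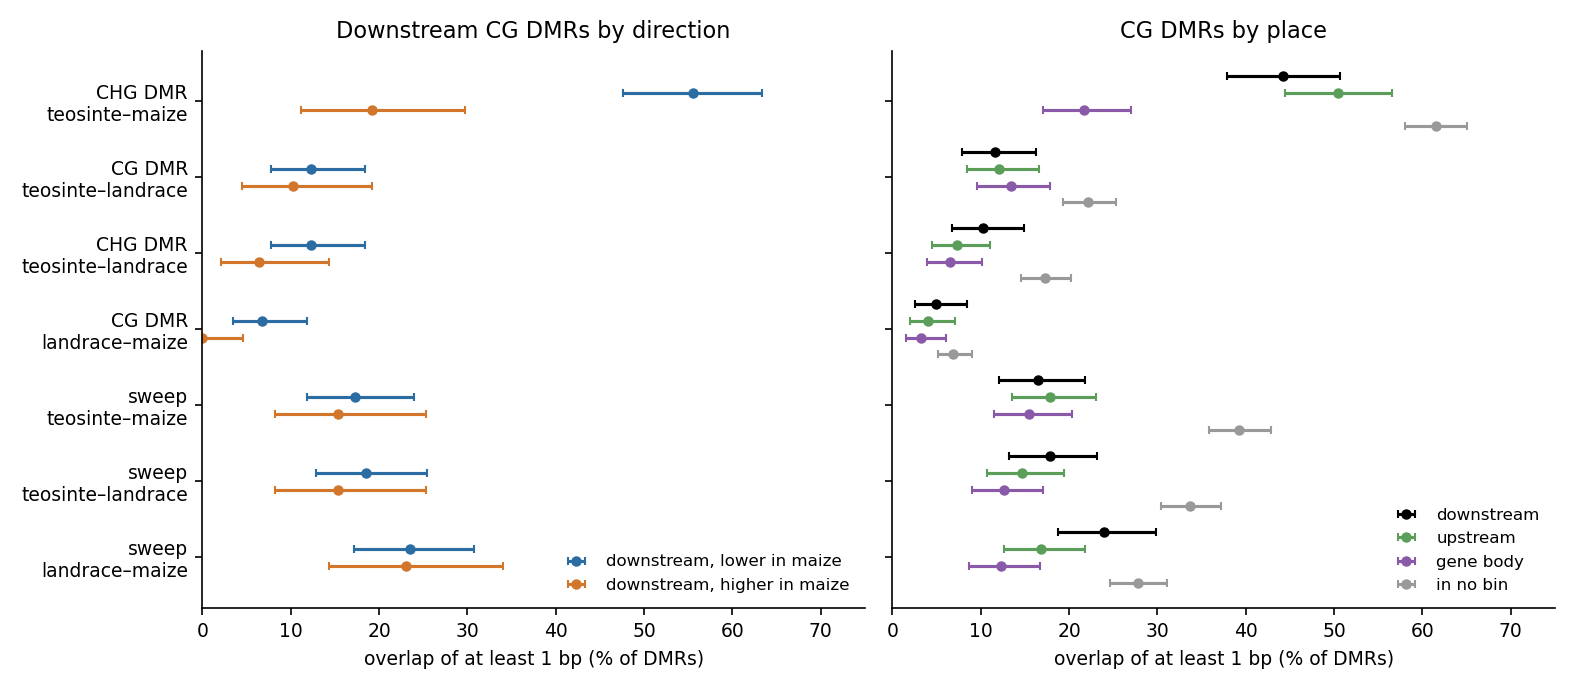
Share of CG DMRs in percent that overlap another DMR class or a selective sweep by at least 1 bp, with exact 95% intervals; left, downstream CG DMRs lower (n = 162) and higher (n = 78) in maize, and right, downstream CG DMRs beside those upstream, in gene bodies and in no bin. The intervals for direction separate for the CHG DMRs of the teosinte-maize comparison (55.6% and 19.2%) and overlap for every sweep class.

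Lengths were close to those of other CG DMRs. The downstream regions had a median of 325 bp (quartiles 195 and 557, range 57 to 2878), and all CG DMRs a median of 333 bp. Regions lower in maize had a median of 330 bp and those higher a median of 301 bp. In total the 242 regions covered 101638 bp, of which 70240 bp were lower and 30572 bp higher in maize. Only 107 of the 242 lay wholly inside their bin, and 135 reached beyond it.

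Length moved with the CHG overlap. The 107 regions with a CHG DMR had a median of 459 bp and the 135 without one a median of 266 bp. The overlap by direction was also taken within each side of the median length. Among regions of at most 325 bp, 33 of 78 lower (42.3%) and 4 of 42 higher (9.52%) overlapped a CHG DMR, a difference of 32.8 points (16.5 to 45.3). Among longer regions, 57 of 84 lower (67.9%) and 11 of 36 higher (30.6%) did, a difference of 37.3 points (17.9 to 52.8). On each side of the median, the share with a CHG DMR was higher among regions lower in maize. Whether length plays a part in the difference by direction was not tested. The split at the median length was chosen after the values were seen.

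**Figure D3:**
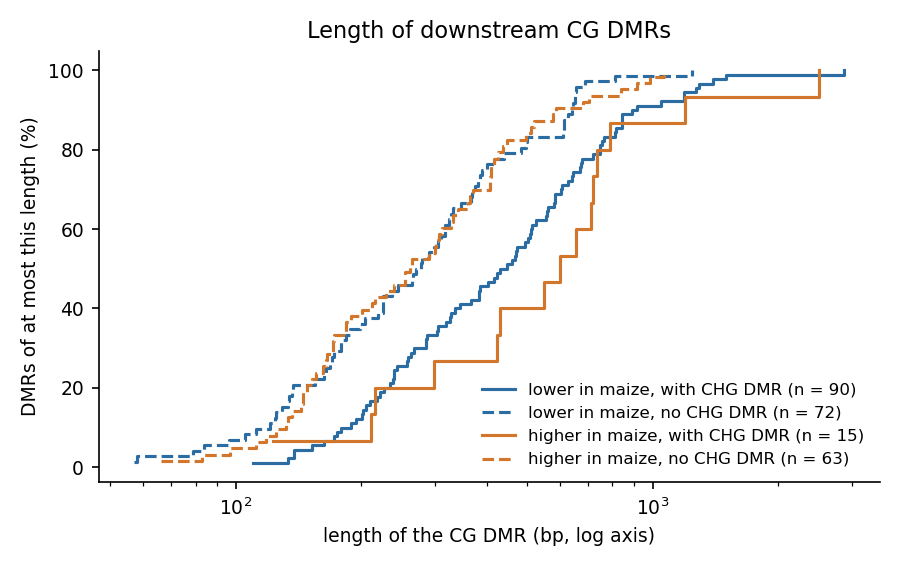
Cumulative share in percent of downstream CG DMRs against their length in bp on a log axis, by direction in maize (colour) and by overlap with a CHG DMR (solid with, dashed without). The solid curves lie to the right of the dashed ones for both directions: the medians are 438 bp (lower, with) and 600 bp (higher, with) against 274.5 and 261 bp without.

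The longest downstream CG DMR was assigned to bin 26 of Zm00001d033932, on chromosome 1 from 278895434 to 278898312. It was 2878 bp long and lower in maize, and a CHG DMR covered 2518 bp of it. The next was 2507 bp long, beyond Zm00001d008633 on chromosome 8 from 15278073 to 15280580. It was higher in maize, and a CHG DMR covered 2501 bp. The third, 1495 bp beyond Zm00001d016533 on chromosome 5 from 166583109 to 166584604, was lower in maize with 1490 bp in a CHG DMR. All 3 of the longest regions were thus covered over most of their length by a CHG DMR, in either direction. The 3 shortest, of 57 bp (Zm00001d034824), 58 bp (Zm00001d024567) and 66 bp (Zm00001d007119), overlapped none, and those of 58 and 66 bp stand on the list of exons.

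CHH differences were rare at these sites. One region, 1 of 242 (0.413%, interval 0.0105 to 2.28), overlapped a teosinte-maize CHH DMR, where the share over all CG DMRs was 0.712%. It lay beyond Zm00001d035015 on chromosome 6 from 1850503 to 1850746 and was lower in maize. The CHH DMR covered 155 of its 243 bp and a CHG DMR covered 93 bp. When a CHH DMR within 500 bp counted, the number rose to 13 of 242 (5.37%, interval 2.89 to 9.01). The share of all CG DMRs with one within 500 bp was not taken.

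The same sites were also compared between teosinte and landraces. This comparison shares the teosinte plants with the teosinte-maize one, so its calls are not independent, and they are given side by side only. Of the 242 regions, 28 (11.6%, interval 7.83 to 16.3) overlapped a teosinte-landrace CG DMR and 25 (10.3%, interval 6.80 to 14.9) a teosinte-landrace CHG DMR. The shares over all CG DMRs were 17.2% and 12.5%. Against CG DMRs in no bin (22.2%), the CG share differed by -10.6 points (-15.2 to -5.17). Against upstream (12.1%) and gene-body regions (13.4%) the intervals of the difference held 0. By direction, 20 of the 162 lower regions (12.3%) and 8 of the 78 higher ones (10.3%) overlapped a teosinte-landrace CG DMR, and the difference of 2.09 points had an interval of -7.57 to 9.84.

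The longest such overlap lay beyond Zm00001d017717 on chromosome 5 from 205090056 to 205091249. This region was higher in maize, and a teosinte-landrace CG DMR of 943 bp lay inside its 1193 bp. It is listed in an exon of Zm00001d017718. The region beyond Zm00001d030901 on chromosome 1 from 166625235 to 166625937 was also higher in maize, and a teosinte-landrace CG DMR covered all its 702 bp. It overlapped no CHG DMR of either comparison. The region beyond Zm00001d020160, higher in maize too, had 570 of its 915 bp in such a DMR. Lower in maize were the regions beyond Zm00001d013124 (554 of 554 bp), Zm00001d045280 (526 of 558 bp), Zm00001d008989 (471 of 513 bp), Zm00001d041041 (435 of 678 bp) and Zm00001d012918 (399 of 400 bp). In these 8 regions, landraces were called different from teosinte over most of the bases at which modern maize was.

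Landrace-maize calls were fewer. This comparison shares the modern lines with the teosinte-maize one. Of the 242 regions, 12 (4.96%, interval 2.59 to 8.50) overlapped a landrace-maize CG DMR, beside 5.44% of all CG DMRs. Of the 12, 11 were lower in maize than in teosinte and 1 had no known direction, and 0 of the 78 regions higher in maize had such an overlap (interval 0 to 4.62). Over all CG DMRs the overlap was also more frequent among those lower (72 of 998, 7.21%) than among those higher in maize (11 of 544, 2.02%). In the study most landrace-maize CG DMRs are themselves lower in maize, which favours such a split. The study also saw slightly more methylation in landraces and says that lower sequencing depth may be the reason. None of the 12 overlapped a teosinte-landrace CG DMR, and 10 overlapped a teosinte-maize CHG DMR. A region with both calls in the same direction would need a large teosinte-maize difference, since each call needs a minimum mean difference. With 11.6% of all 242 regions overlapping a teosinte-landrace CG DMR, few would be looked for among 12 in any case. No conclusion is drawn from finding none. The same counts over all CG DMRs with a landrace-maize overlap were not taken.

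The longest landrace-maize overlap lay beyond Zm00001d026653 on chromosome 10 from 149487396 to 149488790, with 1066 of 1394 bp. It was followed by Zm00001d016533 (668 of 1495 bp), Zm00001d004541 (363 of 429 bp), Zm00001d027242 (335 of 422 bp) and Zm00001d036655 (286 of 286 bp). The region beyond Zm00001d046429, on chromosome 9 from 89465935 to 89466145, was called with the same start and end in both comparisons. These are regions at which modern lines were called different from landraces and teosinte alike, while no teosinte-landrace CG call was made. Each call needs a minimum mean difference, so a smaller shift between teosinte and landraces is not excluded there. Teosinte and landraces were sequenced in the study and the modern lines were not, so population and data source cannot be told apart for these calls either.

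Selective sweeps are stretches where allele frequencies differ between populations more than in the rest of the genome, here the outliers of the XP-CLR score. Of the 242 downstream regions, 40 (16.5%, interval 12.1 to 21.8) lay in a teosinte-maize sweep, where the share over all CG DMRs was 27.7%. The sweeps cover 15.8% of the chromosomes, measured up to the largest position in the tables. The shares upstream (17.9%) and in gene bodies (15.5%) were near the downstream one, with differences of -1.42 (-7.91 to 5.20) and 1.01 points (-5.29 to 7.44). CG DMRs in no bin had 39.3%, and the downstream share differed from it by -22.8 points (-28.2 to -16.6). The high share over all CG DMRs thus came from the unbinned regions, and the downstream regions stood near the genome's own coverage.

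Direction made no detectable difference in the sweeps. In teosinte-maize sweeps lay 28 of the 162 regions lower in maize (17.3%) and 12 of the 78 higher (15.4%), a difference of 1.90 points (-8.95 to 11). Teosinte-landrace sweeps held 43 of the 242 regions (17.8%, interval 13.2 to 23.2), beside 24.1% of all CG DMRs. Landrace-maize sweeps held 58 (24.0%, interval 18.7 to 29.9), beside 22.5% of all CG DMRs. These sweeps cover 15.9% and 15.5% of the chromosomes. The landrace-maize share was 11.7 points above that of gene bodies (12.3%, interval of the difference 5.08 to 18.4) and 7.12 points above that of upstream regions (16.8%, 0.161 to 14.1). Against CG DMRs in no bin (27.8%) it differed by -3.79 points (-9.74 to 2.74), and it was near the share over all CG DMRs. The teosinte-landrace share was 3.12 points (-3.24 to 9.59) above upstream regions and 5.13 points (-1.04 to 11.4) above gene bodies, with intervals that hold 0. In any sweep lay 85 of the regions (35.1%, interval 29.1 to 41.5), beside 42.5% of all CG DMRs. In sweeps of all the comparisons lay 13 (5.37%, interval 2.89 to 9.01), beside 8.03% of all CG DMRs.

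The 40 regions fell in 36 distinct teosinte-maize sweeps out of 1330, and 4 sweeps held 2 regions each. The sweeps with a region had a median XP-CLR of 110.9 (range 61.0 to 195.3), where all sweeps had 77.2. They were also longer, with a median of 442.5 kb against 130 kb, and 12 of them, longer than 1 Mb, held 14 of the regions. A longer sweep is more likely to hold any given region, so the way these sweeps were picked favours long ones. Score and length of the sweeps were not separated, and sweeps that hold other CG DMRs were not compared. With sweeps of at most 1 Mb alone, 26 of the 242 regions (10.7%) lay in a sweep. For these shorter sweeps, neither the share over all CG DMRs nor the part of the chromosomes covered was taken. The 202 regions outside were a median of 579.2 kb from the nearest sweep (range 0.250 to 17340.9 kb). For the other CG DMRs outside these sweeps the median was 408.8 kb.

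**Figure D4:**
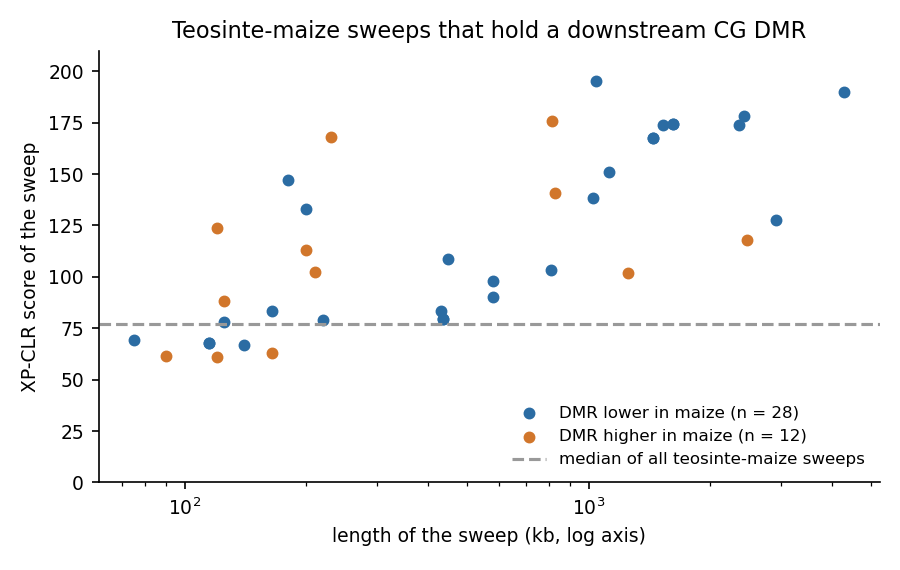
XP-CLR score against length in kb (log axis) for the teosinte-maize sweep around each of the 40 downstream CG DMRs that lie in one, coloured by direction in maize; regions that share a sweep fall on one point. Scores run from 61.0 to 195.3, mostly above the dashed median of all sweeps (77.2), and regions of both directions occur in short and long sweeps.

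The sweep of highest XP-CLR with a downstream region, 195.3, runs on chromosome 8 from 98015001 to 99060000 and ranks 11 of 1330. It holds the region beyond Zm00001d010066, of 319 bp and lower in maize, which lies wholly in a CHG DMR. A teosinte-landrace CG DMR covers 202 bp of it, and a teosinte-landrace sweep of XP-CLR 161.6 spans it as well. The next sweeps hold the regions beyond Zm00001d019744 (XP-CLR 189.9, lower in maize), Zm00001d024120 (178.5, lower), Zm00001d020160 (175.6, higher) and Zm00001d010146 (174.5, lower). The last of these sweeps also holds the region beyond Zm00001d010159, on chromosome 8 from 102409725 to 102409893, which was lower in maize and overlapped no CHG DMR. The region higher in maize overlapped no teosinte-maize CHG DMR either. It was assigned to bin 21 of Zm00001d020160 and reaches beyond that bin, on chromosome 7 from 96521091 to 96522006.

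A few regions coincided with many classes at once. Over 8 classes (5 of DMRs and 3 of sweeps), 88 regions overlapped none, 71 overlapped 1, 33 overlapped 2, 29 overlapped 3, 15 overlapped 4 and 6 overlapped 5. The same counts over all CG DMRs were not taken. Class by class, the downstream share was below that over all CG DMRs, except for landrace-maize sweeps (24.0% beside 22.5%). Those 6 lie beyond Zm00001d032786, Zm00001d041041, Zm00001d050635, Zm00001d035791, Zm00001d010066 and Zm00001d045280. All 6 overlapped a teosinte-maize CHG DMR and a teosinte-landrace CHG DMR, and the one beyond Zm00001d050635 was the one higher in maize. That region, on chromosome 4 from 107861438 to 107861986, lies in a sweep of each comparison, with XP-CLR 168.1 (teosinte-maize), 149.6 (teosinte-landrace) and 115.5 (landrace-maize). The region beyond Zm00001d035791, on chromosome 6 from 50123075 to 50123276, is the one of the 6 with a landrace-maize CG DMR, over 182 of its 201 bp. It lies in a landrace-maize sweep of 2645000 bp and XP-CLR 185.5. The region beyond Zm00001d032786 lies in no teosinte-maize sweep, though a teosinte-landrace (61.9) and a landrace-maize sweep (116.5) span it.

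The 242 regions belonged to 236 genes, and 6 genes had 2 regions each. The closest pair, 29 bp apart, lay beyond Zm00001d028114 on chromosome 1 from 23270067 to 23270812 and from 23270841 to 23271159. The first was lower in maize and the second has no direction in the list used, and 1 landrace-maize CG DMR of 131 bp spans the gap between them. The pair beyond Zm00001d025025 on chromosome 10 shares 1 CHG DMR of 882 bp and lies in a teosinte-landrace sweep of XP-CLR 200.6. The pairs beyond Zm00001d052716, Zm00001d019518 and Zm00001d021270 were lower in maize at both sites, and the pair beyond Zm00001d045735 was higher at both. In the pair of Zm00001d045735 each region overlapped a CHG DMR, and in the pair of Zm00001d052716 neither did.

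For 12 genes a further CG DMR lay upstream (6 genes) or in the gene body (6 genes). In Zm00001d003950 and Zm00001d014036 the downstream region was lower in maize and the gene-body region higher. Zm00001d025025 had 1 downstream region lower and an upstream region higher in maize. In the other 9 genes the direction was the same at both places. For Zm00001d045735 this made 3 regions higher in maize, 1 upstream of 918 bp and those downstream of 211 and 733 bp.

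On the study's list of candidate genes for flowering time stand 2 of the 242 regions. The share over all CG DMRs was not taken. The study describes the list as candidates at DMRs in sweeps or in chromatin contacts, so it is not independent of the DMRs. The region in bin 21 of Zm00001d034240, on chromosome 1 from 287657346 to 287657607, was higher in maize and is also on the list of exons for that gene. The region in bin 26 of Zm00001d038936, on chromosome 6 from 167325784 to 167326148, was higher in maize as well. The flowering time list gives it under another gene ID than the bins do. Neither overlapped another DMR class or a sweep. The list of genes in contact with intergenic DMRs leaves out DMRs within 5 kb of genes by the study's definition, and 0 of the 242 stand on it.

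The regions were spread over all 10 chromosomes, with 13 (chromosome 7) to 40 (chromosome 5) each. The share lower in maize was 52.5% on chromosome 5, where 21 were lower and 19 higher, and 64% to 76.5% on the others. In teosinte-maize sweeps lay 4 of 13 regions on chromosome 7 (30.8%) and 9 of 30 on chromosome 4 (30%), the highest shares, and 1 of 18 on chromosome 10 (5.56%), the lowest. The median gap between neighbouring regions was 4927.0 kb, and 11 pairs lay under 10 kb apart.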

How the data were processed

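Bisulfite and genome libraries were made for 20 teosinte and 17 landrace plants, and the authors added published data of 14 modern maize lines. Per the methods of the study, reads were mapped with Bowtie2 to B73 AGPv4 carrying each plant's SNPs, cytosines were extracted with Bismark, and DMRs were called with metilene between populations under a minimum mean difference, which leaves out smaller shifts. BWA, Picard and GATK 4 are named in the submitters' processing notes as well. Each deposited DMR has a position, a cytosine context and a pair of populations. Each deposited sweep has a position and an XP-CLR score computed by the authors, which served here only to describe and rank sweeps. Other deposited values were not used, and 23 sweep ends written in exponential form were read as round positions.

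Bins, lists and direction (from population means, held for 1542 of 1545 teosinte-maize CG DMRs, no value printed) came from the study's supplementary tables and were joined by chromosome, start and end. Coordinates are as the tables give them. DMR starts were taken to count from 0 and sweep starts from 1. Regions overlapped if they shared at least 1 bp. Shares have exact Clopper-Pearson intervals and differences of shares Newcombe intervals, at 95%. No test was run, since the tables hold no plant-level values, and no p-value is given. Overlap counts were checked on simulated regions and against bedtools 2.31.1. Python 3.11.15, numpy 2.4.6, pandas 2.3.3, scipy 1.17.1 and matplotlib 3.10.9 were used. The gene table at hand, of another assembly, matched 0 of the gene IDs, so IDs are printed without names, and no sequence is shown.

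The regions and lists were chosen with earlier results of these data known. Named regions are the 10 with the most overlapped classes of 8, 5 in the highest-scoring sweeps (a sixth, in the same sweep as the fifth, was added after its values were seen), genes with 2 regions, the 3 longest and 3 shortest, the 8 longest teosinte-landrace overlaps, the closest pair, up to 10 by overlap with landrace-maize CG or CHH DMRs, and those on the flowering time list. Alternatives were other overlap rules, origins of starts, sweep subsets, 1 region per gene, neighbours within 10 kb counted once, and leaving out each chromosome.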

Additional observations from a re-analysis of the deposited data

How the results depend on the processing

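The 10 results were recomputed under 77 alternatives, and 72 of these lay within the 95% interval of the reported value. Many of the alternatives keep most of the same regions, so their values could hardly leave that interval. The tally is therefore no measure of robustness. The share lower in maize was 83.0% among the 94 regions with a difference of population means of at least 0.6, and the CHG difference by direction was then 16.8 points. The share with a CHH DMR within 500 bp was 5.37%. The share in teosinte-maize sweeps was 10.7% with sweeps of at most 1 Mb. For this setting and the CHH one, the share over all CG DMRs was not taken. Of the sweeps, 2.71% held a region, which has another denominator. Leaving out each chromosome gave 66.8% to 70.5% for the share lower in maize, 14.6% to 17.5% for the sweep share, 32.4 to 38.9 points for the CHG difference and -31.1 to -18.8 points for bin 21 against bins 22 to 30. The interval of this last difference reached 0 without chromosome 1 and with bins 21 and 22 joined (-10.8 points, -25.0 to 2.71). Without regions on the list of exons this difference was -35.6 points. The alternatives without regions on that list, with neighbours counted once for the CHG difference, and by chromosome for both differences were chosen after seeing the data. No paired analysis was possible because no result comes from a test and the tables hold no value per plant. Coverage limits which regions could be called, and its effect was not tested.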
